A study of Mus musculus with 16 samples.

Results

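The genes described here encode the chains of collagen, the proteins that build the fibres and basement membranes of the extracellular matrix. They were chosen by symbol: a row of the deposited count table was taken when its symbol was Col, a number, the letter a and a number, with nothing after it, and exact copies of a line were removed. This gave 44 genes of 40409 in the table. Expression was measured by RNA sequencing of liver from 16 db/db mice, 8 injected with AAV8 encoding arcA and 8 injected with AAV8 encoding GFP. AAV8 is an adeno-associated virus that enters hepatocytes efficiently. The db/db strain lacks a working leptin receptor and becomes obese and diabetic, so mice of both groups carried that defect. Per the labels, the mice were littermates injected at about 5 weeks of age, and liver was taken 5 weeks after infection at 10 weeks of age. What arcA encodes is not given in the labels. A bacterial gene of this name encodes arginine deiminase, which breaks down arginine. The sources used here name neither the promoter that drives each transgene nor the sex of the mice. The labels number the samples 1 to 8 in each group without saying that each came from a separate mouse, so p-values measure the spread between these samples.

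A collagen molecule is a triple helix of 3 chains, which may be alike or products of different genes. The chains are hydroxylated and folded in the endoplasmic reticulum, exported, trimmed of their end propeptides, and cross-linked outside the cell. In liver, hepatic stellate cells and portal fibroblasts are the main makers of fibrillar collagen, sinusoidal and other vascular cells contribute basement membrane collagen, and scar tissue is rich in collagen types I and III.

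Total counts were between 37325610 and 45874797 per library in arcA livers and between 28912563 and 53520828 in GFP livers. Levels are given as CPM, the count as a share of the TMM-scaled library size, or as RPKM, the same per kilobase of transcript, where genes are set side by side. Hepatocyte markers marked the tissue as liver, with Alb, the gene of albumin, at a median of 68888 CPM in arcA livers and 60029 CPM in GFP livers. A gene with ribosomal RNA sequence, Gm42418, held 2.45% to 7.37% of the counts of arcA livers. It held 11.8%, 18.1% and 19.4% in the livers GFP 2, 3 and 5, with 2.29% to 5.83% in the rest of the GFP group. The table has no row for arcA or GFP that could check the labels, and transgene expression was not analysed here. Of the 44 collagen genes, 25 passed the filter on low counts and were tested among 14476 genes.

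The sequence before the start is shown for 3 collagen genes with a RefSeq start, 2 that fell in arcA livers (Col1a2 and Col3a1) and the 1 that rose (Col18a1). The sequences were taken from RefSeq on GRCm38.p6 and cover up to 250 bases before the start, leaving out any base inside an annotated exon. Capitals mark 3 motifs, each searched on both strands and not overlapping one another here. The first motif, known as the TATA box, was searched as TATAAA. The letters CCAAT were used for the motif of the same name, which reads as ATTGG on the opposite strand. The letters of the GC box were GGGCGG, or CCGCCC when it lies on the opposite strand. Col1a2 (chr6:4505370-4505492, plus strand), Col3a1 (chr1:45311288-45311537, plus strand) and Col18a1 (chr10:77166549-77166780, minus strand) read 5′ to 3′ as follows.
Col1a2: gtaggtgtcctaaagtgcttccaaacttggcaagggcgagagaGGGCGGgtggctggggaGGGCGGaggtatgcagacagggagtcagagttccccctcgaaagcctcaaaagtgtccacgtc
Col3a1: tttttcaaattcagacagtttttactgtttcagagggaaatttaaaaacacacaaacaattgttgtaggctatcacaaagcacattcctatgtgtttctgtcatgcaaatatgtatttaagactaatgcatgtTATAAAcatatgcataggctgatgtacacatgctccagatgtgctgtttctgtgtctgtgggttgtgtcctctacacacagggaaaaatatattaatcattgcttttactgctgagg
Col18a1: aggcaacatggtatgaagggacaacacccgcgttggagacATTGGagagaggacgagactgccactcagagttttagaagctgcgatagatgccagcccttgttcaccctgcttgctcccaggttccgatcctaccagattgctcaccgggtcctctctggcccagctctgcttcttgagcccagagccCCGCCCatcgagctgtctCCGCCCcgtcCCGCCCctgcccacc
The Col1a2 window, which ends 126 bases before the RefSeq start, held 2 GC boxes. The full 250 bases of Col1a2 also held 1 CCAAT box, 109 to 105 bases before that start, in the part left out. The GENCODE M21 start of Col1a2 lies upstream of the RefSeq one, at 4504814, so this window is inside the gene as GENCODE draws it, outside its exons. The Col3a1 window held the letters TATAAA once, 117 to 112 bases before the RefSeq start, and no GC box. Whether that site acts as a TATA box was not tested. The Col18a1 window shown held 3 GC boxes and 1 CCAAT box. Col18a1 has a second RefSeq start, inside the gene, whose window (chr10:77113706-77113955, minus strand) held none of the 3 motifs. For Col18a1 only a window with a GC box was shown, so this one was left out. Which start these livers used was not tested. Among the 38 RefSeq windows of 250 bases that belong to 35 of the 44 collagen genes, 57.9% held a GC box, 34.2% a CCAAT box and 13.2% a TATA box. Among all 32851 windows of the same length, 32.7% held a GC box, 33.8% a CCAAT box and 12.4% a TATA box. No motif here was tested against expression, and a window without these letters says nothing about which factors bind it.

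Collagen genes that fell in arcA livers came from 4 of the 8 classes, and a single gene rose. Of the 25 genes tested, 10 fell and 1 rose at an adjusted p under 0.05, and 14 did not pass. Across all 14476 genes, 6.57% fell and 4.27% rose under the same rule. The genes that fell were Col1a1, Col1a2, Col3a1 and Col5a1 of the fibrillar class, Col4a1 and Col4a2 of the basement membrane, Col6a1 and Col6a3 of the beaded filaments, and Col14a1 and Col16a1 of the fibril-associated class. The gene that rose was Col18a1, the source of endostatin. The median log2 fold change of arcA over GFP over the 25 genes was -0.49, beside 0.0092 over all genes tested. It was below 0 in 21 of the 25, where 47.7% of all genes were, though Col4a5, Col5a3, Col12a1 and Col13a1 were above 0 when libraries were scaled on stellate cell markers. At an unadjusted p under 0.05, 15 of the 25 were lower in arcA livers, where the share over all genes was 12.6%.

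**Figure D1:**
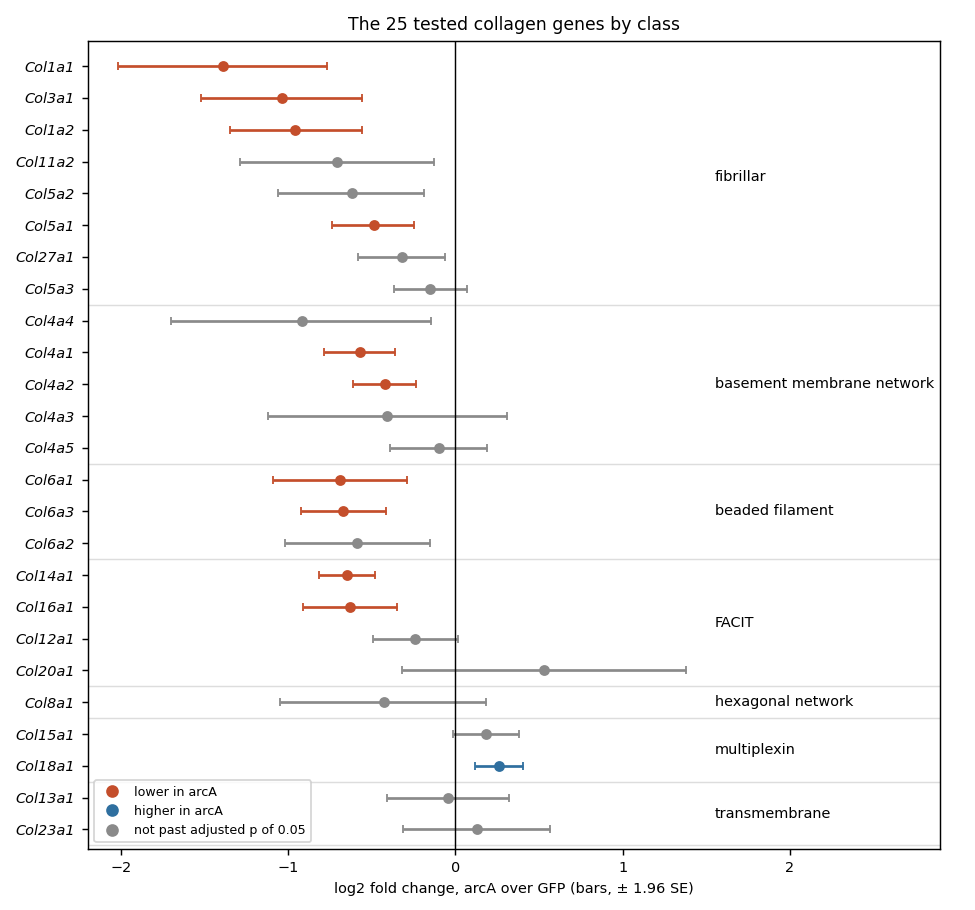
Log2 fold change (arcA over GFP, horizontal axis) of the 25 collagen genes tested, grouped by class down the page. Points are estimates, and bars are approximate 95% intervals from the SE and a normal distribution. Grey genes did not pass, FACIT are the fibril-associated collagens and multiplexins are Col15a1 and Col18a1. The 10 orange points left of 0 are the genes that fell, led by Col1a1 at -1.39, and the blue point is Col18a1 at 0.26.

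Summed over the 43 genes other than Col18a1, collagen RNA per length was 32.9 ± 4.50 RPKM in arcA livers and 50.3 ± 7.81 RPKM in GFP livers (SD, n = 8 each). The libraries did not overlap, with 25.4 to 38.6 RPKM in arcA livers and 40.7 to 63.5 RPKM in GFP livers. With Col18a1 included, the sum was 272 ± 22.1 RPKM in arcA livers and 250 ± 15.0 RPKM in GFP livers (SD, n = 8 each), because that gene alone made up most of the total. The other 43 genes held 12.1% ± 1.39 of the summed collagen RNA in arcA livers and 20.3% ± 4.15 in GFP livers (SD, n = 8 each). In bulk liver, fewer cells of a type and less RNA per cell cannot be told apart.

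The fibrillar class held the 3 largest falls among the genes that passed. These collagens form the banded fibres of connective tissue, and Col1a1 and Col1a2 encode the chains of type I collagen, the main collagen of scar. Col1a1 (ENSMUSG00000001506.10, GRCm38 chromosome 11, 94936224 to 94953042) had a lowest, median and highest level of 2.22, 7.43 and 13.3 CPM in arcA livers, against 12.9, 19.4 and 29.9 CPM in GFP livers. Its log2 fold change was -1.39 (SE 0.319, adjusted p = 0.012), and 7 of 8 arcA livers lay below the lowest GFP liver. The arcA livers were spread widely, since the highest held 6 times the level of the lowest, beside 2.32 times among GFP livers. Col1a2 (chromosome 6, 4504814 to 4541544) had 4.82, 10.9 and 15.3 CPM in arcA livers, against 14.2, 22.2 and 27.3 CPM in GFP livers. Its log2 fold change of -0.96 passed (SE 0.203, adjusted p = 0.00689), again with 7 of 8 arcA livers below every GFP liver.

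Col3a1, which encodes the chain of type III collagen found with type I in elastic tissue and early scar, was the most abundant fibrillar gene. It lies on chromosome 1 (45311538 to 45349706) and had 9.97, 20.2 and 34.0 CPM in arcA livers, against 30, 44.9 and 68.1 CPM in GFP livers. Its log2 fold change of -1.04 passed (SE 0.244, adjusted p = 0.0135), and 6 of 8 arcA livers were below the lowest GFP liver. Col5a1 (chromosome 2, 27886425 to 28039514) encodes a chain of type V collagen, which starts and limits the width of type I fibres. It had 4.36, 5.44 and 7.61 CPM in arcA livers, against 6.29, 7.91 and 10.1 CPM in GFP livers, a fall of 0.49 (log2, SE 0.124, adjusted p = 0.0139). The call for Col5a1 was lost without GFP 2, 3 and 5 (adjusted p = 0.0607).

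The other 4 fibrillar genes tested did not pass. Col5a2, the usual partner of Col5a1, had a log2 fold change of -0.62 (adjusted p = 0.0803), and Col11a2 had -0.71 (adjusted p = 0.136). Col5a2 passed with DESeq2 (0.0449), with limma voom (0.0461), with hepatocyte scaling (0.0426), without arcA 3 and 8 (0.0397), and without arcA 8 or GFP 4 alone. Col11a2 passed without arcA 4. Col27a1 had -0.32 (adjusted p = 0.128, and 0.0419 with hepatocyte scaling) and Col5a3 had -0.15 (adjusted p = 0.44). The approximate 95% interval of Col5a2 lay between -1.06 and -0.19 and that of Col5a1 between -0.74 and -0.25. Over the 8 fibrillar genes the median was -0.66, and the summed fibrillar RNA was 10.9 ± 3.12 RPKM in arcA livers and 20 ± 4.53 RPKM in GFP livers (SD, n = 8 each).

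**Figure D2:**
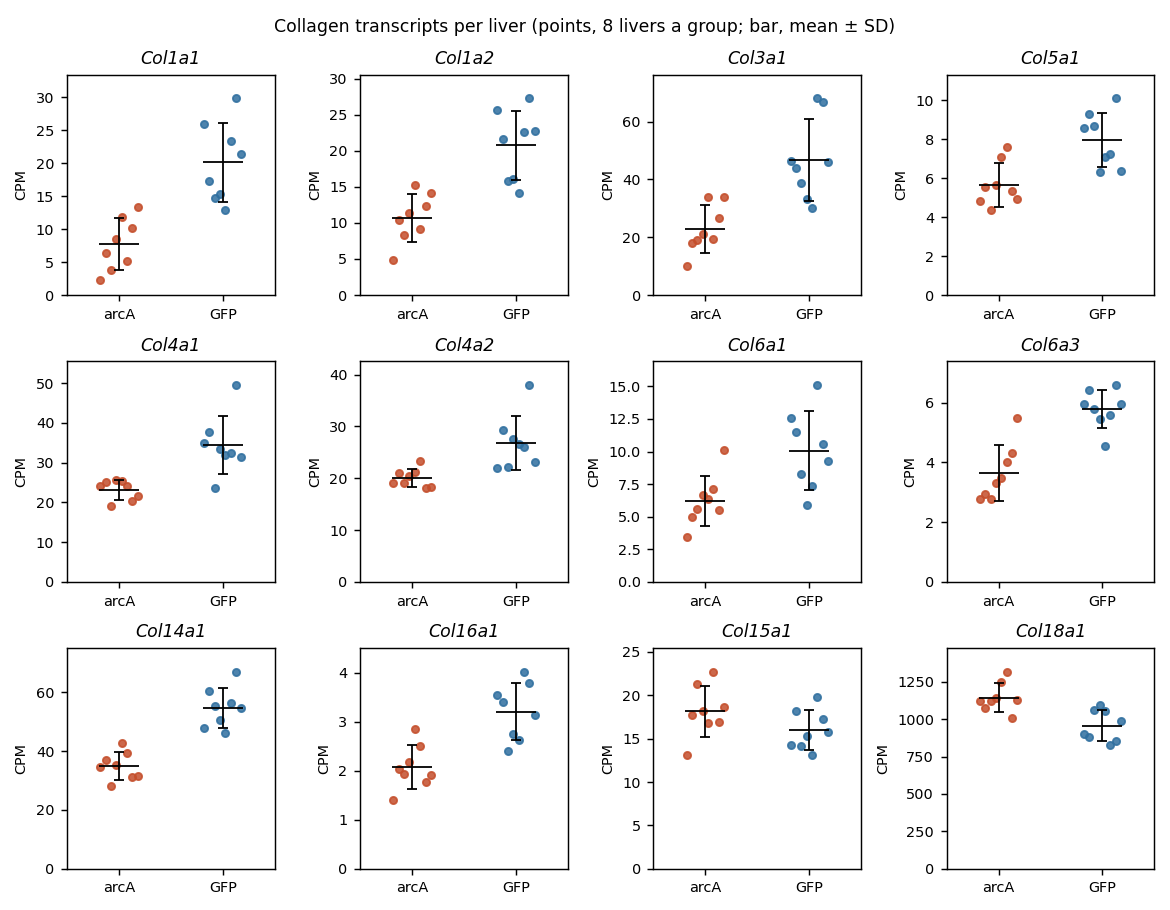
CPM (vertical axis, starting at 0) of the 11 genes that fell or rose and of Col15a1, with arcA left of GFP in each panel. Points are livers, and the line and bar are the mean and SD of the 8 livers of a group. Col14a1 is the gene with no overlap between the groups, at 28.0 to 42.9 CPM in arcA livers and 46.3 to 66.9 CPM in GFP livers.

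Both main basement membrane chains fell. Col4a1 and Col4a2 encode the chains of the type IV network that lines vessels and, in liver scarring, the sinusoids. Col4a1 (chromosome 8, 11198423 to 11312826) had 19.1, 24.0 and 25.6 CPM in arcA livers, against 23.7, 32.9 and 49.5 CPM in GFP livers. Its log2 fold change was -0.57 (SE 0.109, adjusted p = 0.00263), and 3 of 8 arcA livers were below the lowest GFP liver. Col4a2 (chromosome 8, 11312805 to 11449287) had 18.1, 19.8 and 23.3 CPM in arcA livers, against 22, 26.4 and 38.0 CPM in GFP livers. It fell by 0.42 (log2, SE 0.0948, adjusted p = 0.00686), with 7 of 8 arcA livers below every GFP liver.

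The 2 genes lie head to head, and their annotated first exons share the 22 bases of chr8:11312805-11312826, shown on the plus strand because reads there cannot be assigned to 1 gene without strand.
Col4a2 and Col4a1 shared start: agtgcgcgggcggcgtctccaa
This overlap is 0.295% of the exon length of Col4a1 and 0.332% of that of Col4a2. The chains of the kidney and eye type of network, Col4a3, Col4a4 and Col4a5, did not pass. Their log2 fold changes were -0.41 for Col4a3 (adjusted p = 0.541), -0.92 for Col4a4 (0.148) and -0.10 for Col4a5 (0.738). Col4a3 also shares 563 exon bases, 5.65% of its exon length, with C430014B12Rik on the other strand, so its count is uncertain.

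Type VI collagen forms beaded filaments that anchor cells to the surrounding matrix, and 2 of its 3 tested chains fell. Col6a3 (chromosome 1, 90765923 to 90843971) had 2.77, 3.39 and 5.47 CPM in arcA livers, against 4.54, 5.87 and 6.59 CPM in GFP livers. It fell by 0.67 (log2, SE 0.131, adjusted p = 0.00259), and 7 of 8 arcA livers were below the lowest GFP liver. Col6a1 (chromosome 10, 76708792 to 76726168) had 3.48, 5.98 and 10.1 CPM in arcA livers, against 5.86, 9.92 and 15.1 CPM in GFP livers. Its log2 fold change was -0.69 (SE 0.205, adjusted p = 0.0388), with 7 of 8 arcA livers below the GFP median. That call was lost in 10 of the 16 fits that left out 1 library (adjusted p up to 0.0769), on library size alone (0.073), with no filter (0.0816) and without GFP 2, 3 and 5 (0.062). Col6a2, the third chain of the common type VI molecule, had a log2 fold change of -0.59 and did not pass (adjusted p = 0.101), though it did with DESeq2 (0.0433) and without arcA 3 and 8 (0.0343).

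Among the collagens that sit on the surface of fibres, Col14a1 separated the groups. Col14a1 (chromosome 15, 55307750 to 55520803) encodes type XIV collagen, which binds fibrils and the proteoglycan decorin. Its lowest, median and highest levels were 28.0, 34.9 and 42.9 CPM in arcA livers, against 46.3, 55.0 and 66.9 CPM in GFP livers. It fell by 0.65 (log2, SE 0.0857, adjusted p = 9.7e-05), and all 8 arcA livers lay below all 8 GFP livers. It was the 1 gene of the 25 whose arcA livers were all lower, a pattern that 1.2% of all genes tested showed. None of the 25 had all arcA livers higher, where 0.566% of all genes did. Col16a1 (chromosome 4, 130047840 to 130099283), which encodes the fibril-associated type XVI chain, had 1.41, 1.99 and 2.85 CPM in arcA livers, against 2.40, 3.27 and 4.02 CPM in GFP livers. It fell by 0.63 (log2, SE 0.143, adjusted p = 0.00714). Col12a1 (-0.24, adjusted p = 0.27) and Col20a1 (0.53, adjusted p = 0.496) did not pass. Col20a1 shares 79 exon bases with BX649560.1 on the same strand, whose counts were higher than its own, so its value is uncertain.

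Col18a1 was by far the most abundant collagen gene, and it moved the other way. It encodes type XVIII collagen, a basement membrane proteoglycan that is made in liver mainly by hepatocytes and yields endostatin. Col18a1 (chromosome 10, 77052178 to 77166548) had 1011, 1123 and 1316 CPM in arcA livers, against 825, 944 and 1094 CPM in GFP livers. It rose by 0.26 (log2, SE 0.0734, adjusted p = 0.0277), and 6 of 8 arcA livers lay above the highest GFP liver. Per length its level was 239 ± 19.9 RPKM in arcA livers and 200 ± 21.7 RPKM in GFP livers (SD, n = 8 each). The next in order in arcA livers were Col14a1 at 6.16, Col3a1 at 4.09, Col15a1 at 3.52, Col4a1 at 3.50 and Col4a2 at 3.11 RPKM, and in GFP livers Col14a1 at 9.64, Col3a1 at 8.39, Col4a1 at 5.20, Col4a2 at 4.17 and Col1a2 at 3.88 RPKM. Within arcA livers Col15a1 and Col4a1 did not differ beyond their spread of 0.565 and 0.377 RPKM.

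The log2 fold change of Col18a1 stayed between 0.22 and 0.28 in all 16 fits that left out 1 library. Its call was lost without arcA 5, arcA 6, GFP 2, GFP 6 or GFP 7 (adjusted p up to 0.0736), and also with libraries scaled on hepatocyte markers, where its log2 fold change was 0.12 (adjusted p = 0.291). Of the 16 hepatocyte markers, edgeR called 2 higher, Fgb and Cyp2e1, and 0 lower, DESeq2 called 4 higher and 0 lower, and limma voom called 4 higher and 1 lower. At an unadjusted p under 0.05 in edgeR, 7 were higher and 1 was lower. Over all 14476 genes tested, edgeR called 4.27% higher and 6.57% lower. Their median was 0.17, and their summed level was 89188 to 116499 CPM in arcA livers and 85924 to 101202 CPM in GFP livers. Col15a1, which encodes the related type XV chain, had 13.1, 18 and 22.7 CPM in arcA livers, against 13.1, 15.5 and 19.8 CPM in GFP livers, and did not pass (0.18, adjusted p = 0.272).

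The remaining tested genes were low and did not pass. They were Col8a1, which encodes a short-chain collagen of vessel walls (-0.43, adjusted p = 0.433), and the transmembrane collagens Col13a1 (-0.044, adjusted p = 0.919) and Col23a1 (0.13, adjusted p = 0.787). The 19 genes below the filter had at most 258 counts over the 8 libraries of a group. Col2a1, Col6a4, Col9a2, Col9a3, Col11a1, Col25a1 and Col28a1 had fewer than 30 counts over all 16 libraries. Several of these, such as Col2a1, Col9a2, Col9a3 and Col11a1, are known for their place in cartilage. The other 12 were Col4a6, Col6a5, Col6a6, Col7a1, Col8a2, Col9a1, Col10a1, Col17a1, Col19a1, Col22a1, Col24a1 and Col26a1. Tested by edgeR with no filter, 0 of the 19 passed and 1, Col9a2, had an unadjusted p under 0.05, with 3 counts in arcA livers and 0 in GFP livers. By DESeq2, which gave an adjusted p to 12 of the 19, 0 passed, and 0 of the 19 had an unadjusted p under 0.05.

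The ratio of 2 collagen genes inside 1 library does not depend on how libraries are scaled. Of 11 such ratios tested by an exact two-sided permutation test of the arcA and GFP labels (12870 arrangements), 7 differed at an adjusted p under 0.05 (Benjamini-Hochberg over the 11, smallest possible p 0.000155). Several share Col1a1 and are not independent. Col8a1 to Col8a2 was not tested because Col8a2 was below the filter. The 2 type I chains did not move in step: the log2 ratio of Col1a1 to Col1a2 counts was -0.61 ± 0.386 in arcA livers and -0.064 ± 0.140 in GFP livers (SD, n = 8 each, exact permutation adjusted p = 0.00627). Per length, this was 0.609 ± 0.161 Col1a1 for each Col1a2 in arcA livers and 0.866 ± 0.0822 in GFP livers (SD, n = 8 each), and all 8 arcA livers lay below the GFP median.

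Col1a1, which had the largest fall of the 25 genes, was lower relative to single genes of other classes, namely Col4a1, Col6a1, Col14a1 and Col18a1. These ratios in part restate the fold changes given above and are not separate evidence. No ratio to the sum of a class was tested. On the log2 scale the ratio was lower in arcA livers by 0.98 against Col4a1 (adjusted p = 0.0154), by 0.84 against Col6a1 (0.0128) and by 0.88 against Col14a1 (0.0252), each by the exact permutation test. That against Col14a1 did not pass without GFP 1 (exact permutation adjusted p = 0.0549). Against Col18a1 the log2 ratio lay between -8.95 and -6.39 in arcA livers and between -6.35 and -4.84 in GFP livers, with no overlap (exact permutation adjusted p = 0.00171). Col4a1 to Col18a1 was lower by 0.81 (exact permutation adjusted p = 0.00256). Col3a1 to Col1a1 was higher by 0.46, with 1.67 ± 0.387 in arcA livers and 1.21 ± 0.213 in GFP livers (SD, n = 8 each, exact permutation adjusted p = 0.0154).

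For the partner chains of the other molecules, no ratio passed. The ratio of Col4a1 to Col4a2 differed by -0.15 (exact permutation adjusted p = 0.0816), with all 8 arcA livers below the GFP median, and it passed without GFP 3 (-0.18). That of Col6a1 to Col6a2 differed by -0.11 (0.345), that of Col6a3 to Col6a1 by -0.0045 (0.979) and that of Col5a1 to Col5a2 by 0.16 (0.606). These tests do not show that the ratios were equal. The SDs of the log2 ratio of Col5a1 to Col5a2, 0.582 in arcA livers and 0.436 in GFP livers, were far wider than the difference.

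**Figure D3:**
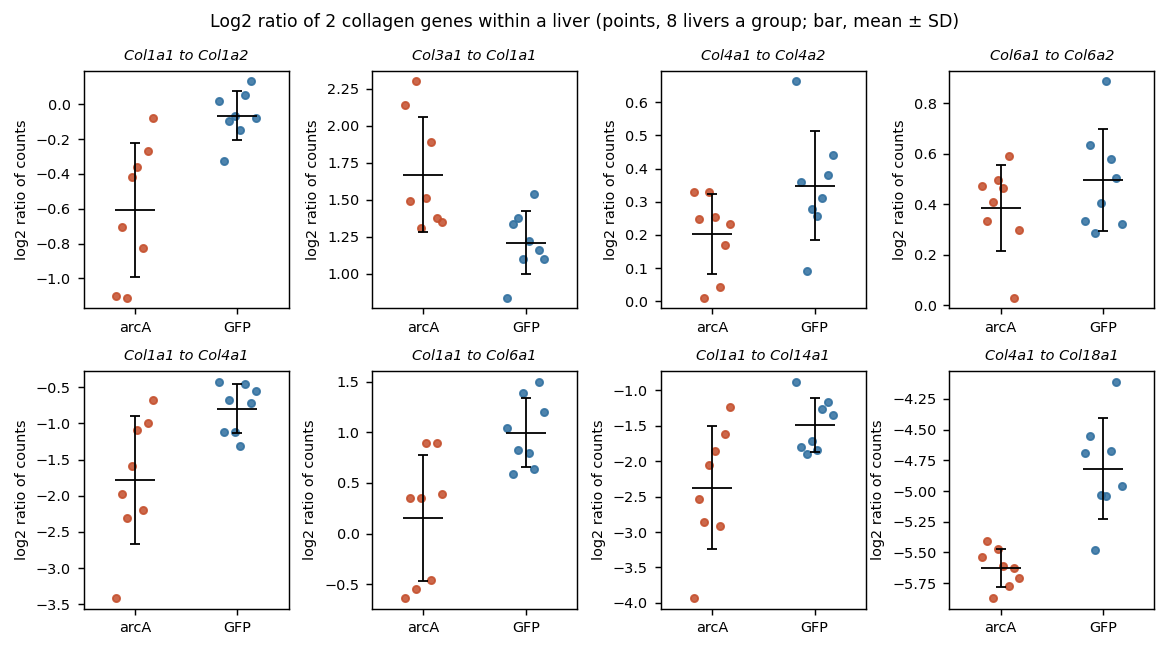
Log2 ratio of the counts of 2 collagen genes within each liver (vertical axis), for 8 of the 11 ratios, with arcA left of GFP in each panel. Points are livers, and the line and bar are the mean and SD of 8 livers. For Col1a1 to Col1a2 the arcA livers are spread from -1.11 to -0.079 around a mean of -0.61, and the GFP livers from -0.33 to 0.13 around a mean of -0.064.

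Within each group, livers high in Col1a1 were high in the other chains of scar collagen. Col1a1 and Col1a2 (log2 CPM) correlated with Pearson's r = 0.975 in arcA livers (Spearman's rho 0.976) and 0.958 in GFP livers (rho 0.976), each with n = 8 and an exact permutation adjusted p of 0.000198 for r and 0.00159 for rho over 8 relations. Col1a1 and Col3a1 correlated with r = 0.943 in arcA livers (rho 0.929, exact permutation adjusted p = 0.000728 for r and 0.00595 for rho) and 0.877 in GFP livers (rho 0.905, 0.00893 for r and 0.00913 for rho). Without the 2 libraries farthest from the median of Col1a1, the type I relation had r = 0.958 in arcA livers and 0.919 in GFP livers. That with Col3a1 had r = 0.927 in arcA livers. In GFP livers it was 0.731 without GFP 5 and 7 and did not pass with the 6 livers left (exact permutation adjusted p = 0.156). Leaving out these 2 livers lowers both the number of livers and the range of Col1a1. The lost call therefore cannot tell whether the relation depends on them.

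The relations of Col1a1 with Col4a1 and Col14a1 did not pass in either group, which with 8 livers a group does not show that there is none. With Col4a1, r was 0.051 in arcA livers (rho 0.143) and 0.626 in GFP livers (rho 0.619), with exact permutation adjusted p of 0.906 and 0.138 for r and 0.752 and 0.184 for rho. With Col14a1, r was 0.177 in arcA livers (rho 0.143) and 0.491 in GFP livers (rho 0.476), with exact permutation adjusted p of 0.77 and 0.291 for r and 0.752 and 0.324 for rho. Without the same 2 libraries a group, r with Col4a1 was -0.399 in arcA livers and 0.424 in GFP livers, and r with Col14a1 was -0.353 in arcA livers and -0.317 in GFP livers. Whether the relations differ between the groups was not tested. The genes of a library share its depth and its scaling.

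**Figure D4:**
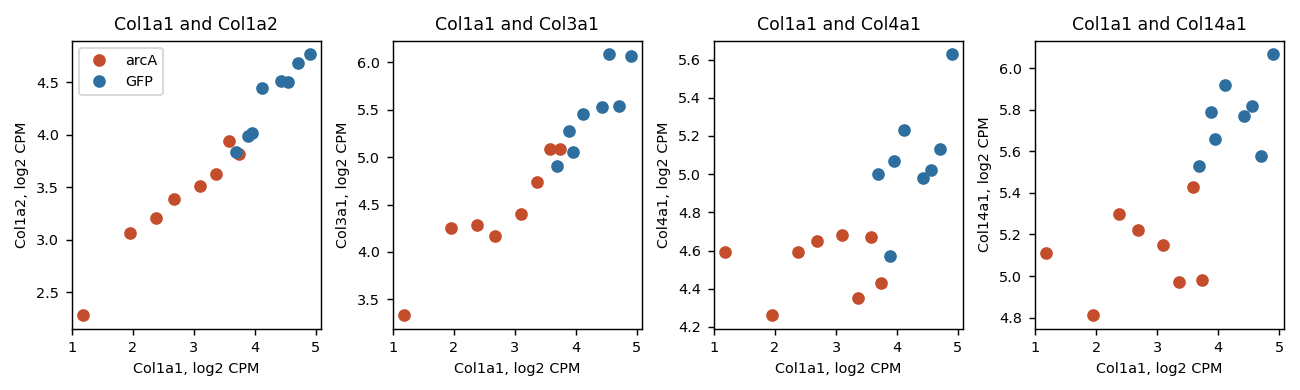
Log2 CPM of Col1a1 (horizontal axis) against 4 other collagen genes (vertical axes), 1 point a liver and 1 colour a group, arcA listed above GFP. Points follow a line in each group for Col1a2 (r = 0.975 in arcA livers and 0.958 in GFP livers) and spread widely for Col14a1 (r = 0.177 in arcA livers and 0.491 in GFP livers).

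The same few livers set the ends of many genes. Of the 10 genes that fell, arcA 1 was the lowest arcA liver in 5 and arcA 3 in 4, while arcA 8 was the highest arcA liver in 4 and arcA 5 in 3. GFP 7 was the highest GFP liver in 7 and GFP 6 in 3, while GFP 5 was the lowest in 5. All but Col6a1 of these 10 still passed in every fit that left out 1 library, and Col1a1 then ranged between -1.55 and -1.25.

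Among the genes that process collagen chains, some fell and some rose. Over all genes tested, 6.57% fell and 4.27% rose, the shares to set beside each list here and below. Of the 13 tested enzymes and partners that hydroxylate proline and lysine in the endoplasmic reticulum, 0 passed by edgeR, and the median was 0.034. At an unadjusted p under 0.05, 1 was lower and 4 were higher. Over all 14476 genes, 3608 were under 0.05 in either direction, 1828 of them lower. DESeq2 called 0 lower and 1 higher, and limma voom called 1 lower and 1 higher. The catalytic subunits of prolyl hydroxylase did not pass, at -0.021 for P4ha1 (adjusted p = 0.944) and 0.38 for P4ha2 (0.151). Of 10 chaperone and export genes, Creb3l1 and Fkbp10 fell and Mia3, which loads collagen into transport carriers, rose (0.21, adjusted p = 0.0427), with a median of -0.021. The call for Mia3 was lost with no filter and with limma voom, where 0 of these genes were higher. Serpinh1, the collagen chaperone HSP47, had 6.40, 9.09 and 11.4 CPM in arcA livers, against 7.99, 12.2 and 15.8 CPM in GFP livers, and did not pass (-0.37, adjusted p = 0.087).

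Outside the cell, 2 of 5 propeptide-removing genes fell and 1 rose. Adamts2, the N-propeptide protease, had 1.79, 2.80 and 3.26 CPM in arcA livers, against 3.79, 5.03 and 7.09 CPM in GFP livers, with no overlap (-0.98, adjusted p = 0.000321). Pcolce, an enhancer of C-propeptide removal, also fell (-0.52, adjusted p = 0.0393), while the C-proteinase gene Bmp1 rose (0.32, adjusted p = 0.0169). Of 5 cross-linking oxidases, Loxl2 fell (-0.87, adjusted p = 0.00796), and Lox had -0.98 (adjusted p = 0.0549). Of 7 receptor and uptake genes 4 fell, namely Mrc2, the endocytic collagen receptor Endo180 (-1.38, adjusted p = 0.000441), Ddr2, a collagen-binding kinase (-0.71, adjusted p = 0.00635), Lair1 and Ddr1, and none rose.

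TGF-beta is the classical inducer of collagen transcription, and 5 of its 13 listed genes fell while none rose (median -0.32). Tgfb1, the ligand, had 2.96, 4.77 and 5.52 CPM in arcA livers, against 5.31, 6.57 and 10.1 CPM in GFP livers (-0.62, adjusted p = 0.00776). The receptor gene Tgfbr2 had 21.2, 25.2 and 28.8 CPM in arcA livers, against 29.7, 31.8 and 50.2 CPM in GFP livers, with no overlap (-0.53, adjusted p = 0.00422). Tgfbr1, the partner receptor gene, and Ltbp1, which encodes a protein that binds latent TGF-beta, fell too. Of 8 genes for collagen cleavage and its inhibitors, the collagenase Mmp13 (-3.11, adjusted p = 0.000397) and the inhibitor Timp2 (-0.59, adjusted p = 0.00201) fell, and the gelatinase Mmp9 rose (1.51, adjusted p = 0.0166). Mmp13 was low throughout, at 0 to 0.148 CPM in arcA livers and 0.314 to 1.35 CPM in GFP livers. Mmp9 was low too, at 0.109 to 1.14 CPM in arcA livers and 0.1 to 0.568 CPM in GFP livers, and the groups overlapped. Limma voom called 0 genes of this list higher.

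Some markers of the cells that make collagen fell as well, where 6.57% of all genes tested fell and 4.27% rose. Of 16 stellate cell markers, 6 fell, among them Pdgfrb, Des, Reln, Tcf21 and Colec11, and none rose. Their median was -0.27, none was at 0, and their summed level had a lowest, median and highest value of 214, 276 and 332 CPM in arcA livers, against 287, 302 and 327 CPM in GFP livers. Lrat, the retinol-storing enzyme of quiescent stellate cells, had -0.34 (adjusted p = 0.306). Of 5 tested markers of activated stellate and smooth muscle cells, Tagln fell and Acta2 had -1.12 (adjusted p = 0.0556), with a summed level of 14.9 to 27.6 CPM in arcA livers and 20 to 32.5 CPM in GFP livers. Of 9 portal fibroblast and mesothelial markers, Thy1 and Cd34 fell, with sums of 8.23 to 21.4 CPM in arcA livers and 12.7 to 48.3 CPM in GFP livers. Of 12 sinusoidal endothelial markers Lyve1 alone fell, near the share of all genes tested that fell (6.57%). The sums of these 12 were 131 to 184 CPM in arcA livers and 138 to 210 CPM in GFP livers.

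With libraries scaled on the 16 stellate markers, a choice made after seeing the data, 7 of the 25 collagen genes were still lower (3.45% of all genes). They were Col1a1 (-1.10, adjusted p = 0.0134), Col1a2 (-0.68, 0.0151), Col3a1 (-0.75, 0.025), Col4a1 (-0.30, 0.0111), Col6a3 (-0.38, 0.0364), Col14a1 (-0.38, 0.000817) and Col16a1 (-0.37, 0.0472). The calls of Col4a2, Col5a1 and Col6a1 were lost under that scaling, which moved the median of all genes by 0.275 and made 48.8% of all genes higher, Col15a1 and Col18a1 among them. Immune markers were lower in the same livers. T cell markers fell in 7 of 7 tested (median -3.06), with sums of 0.619 to 1.97 CPM in arcA livers and 6.61 to 13.1 CPM in GFP livers. Macrophage markers fell in 6 of 11 (median -0.78), a count that was 3 with no filter, 9 with DESeq2 and 11 with limma voom, with sums of 71.4 to 254 CPM in arcA livers and 160 to 293 CPM in GFP livers. Of 7 bile duct markers 0 passed by edgeR, DESeq2 or limma voom and 0 had an unadjusted p under 0.05, with sums of 29.9 to 60.4 CPM in arcA livers and 27.4 to 43.2 CPM in GFP livers. Of the 6 adipocyte markers, the defining genes Adipoq, Lep and Plin1 were below the filter, with at most 25 counts in a group. Retn passed as higher (1.68, adjusted p = 0.0056), Cidea did not pass (-0.83, adjusted p = 0.428), and Car3 passed as higher (0.37, adjusted p = 0.00521) at a median of 2898 CPM in arcA livers and 2199 CPM in GFP livers. Of 9 cartilage, bone and muscle markers Sox5 alone passed the filter and did not pass the test, and Ibsp had 0 counts in all libraries. By edgeR with no filter and by DESeq2, 1 of 8 was lower, the muscle actin gene Acta1, with 11 counts in arcA livers and 105 in GFP livers. The part of the immune, fibroblast and endothelial cells in the collagen result was not tested.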

How the data were processed

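The authors deposited raw read counts per gene symbol for polyadenylated RNA (oligo-dT) of 16 livers. Per the submitters' processing notes, the build is GRCm38 and the tools named are STAR 2.5.1a, Subread with featureCounts 1.4.6-p5, and bcl2fastq. The sources used here give no annotation, strand or mate setting, and 68.1% to 71.4% of counts from 1 to 20 were even, so the number of independent fragments is uncertain. Of 40757 lines, 348 exact copies were removed. No 2 libraries of a group agreed within sampling noise (chi-square per gene 18.5 to 464 over 56 pairs).

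The main test was edgeR's quasi-likelihood test (edgeR 4.0.16 in R 4.3.3) with TMM scaling, a robust fit, the filterByExpr filter and no covariate. P-values were adjusted by Benjamini-Hochberg over 14476 genes with a threshold of 0.05, and log2 fold changes divide arcA by GFP. Ratios used counts plus 2. RPKM used the longest principal transcript of GENCODE M21, which may not be the annotation behind the counts, and coordinates are from it. DESeq2 1.42.0, limma 3.58.1 (voom), other scalings and filters, a replicate block, and fits without libraries were alternatives. The fit was tested on simulated data. The collagen genes, the marker and pathway lists and the alternatives were chosen with earlier results of these data known, as were GFP 2, 3 and 5 and arcA 3 and 8, which were left out together. Every tested collagen gene was open to naming. Of each pathway list up to 4 genes with the smallest p were named, beside 6 fixed genes (Serpinh1, Lox, P4ha1, P4ha2, Ddr2 and Tgfb1), and of each cell list up to 4 markers. Further genes that passed are named to complete a count. Some genes of these lists are counted but not reported here by name.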

Additional observations from a re-analysis of the deposited data

Results flagged for a closer look

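In 6 of 50 groups of 8 livers (25 genes in 2 groups), 1 liver stood apart from the rest, with a gap to its neighbour, as a share of the whole range, above Dixon's 95% critical value. Chance flags about 1 in 20 groups, or 2.5 of 50, if values are normal and groups independent. Neither was checked, the genes come from the same libraries, and each flagged liver was the highest of its group. The 6 flags are therefore not read as more than chance gives. Among the genes that fell, Col4a2 was one of them, with GFP 7 at 38.0 CPM and the next GFP liver at 29.3 CPM. Its fall held without that liver. The other 5 were genes that did not pass. Col4a3 had 0.808 CPM in arcA 1, with the next arcA liver at 0.452 CPM, and its log2 fold change of -0.41 was -0.72 without arcA 1. Col11a2 had 1.29 CPM in arcA 4, with the next arcA liver at 0.562 CPM, and without arcA 4 it passed as lower at -1.04. Col4a4 had 1.67 CPM in GFP 6, with the next GFP liver at 0.719 CPM, and its log2 fold change of -0.92 was -0.57 without GFP 6. Col5a3 had 14.5 CPM in GFP 2, with the next GFP liver at 11 CPM, and its log2 fold change of -0.15 was -0.069 without GFP 2. Col8a1 had 0.839 CPM in GFP 3, with the next GFP liver at 0.461 CPM, and its log2 fold change of -0.43 was -0.23 without GFP 3.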

How the results depend on the processing

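The main counts were 951 genes lower and 618 higher, and 10 collagen genes lower and 1 higher. Scaling on hepatocyte markers gave 1567 lower and 73 higher, with 12 collagen genes lower and 0 higher. Scaling on stellate markers gave 500 lower and 7058 higher, with 7 collagen genes lower and 2 higher. The median of all genes moved by -0.152 and 0.275 under these scalings. Higher genes numbered 253 on library size alone, 407 with a filter of 1 CPM in 8 libraries and 369 without GFP 2, 3 and 5. Of all calls, 39.4% were higher in the main fit, 35.5% with RLE, 24.0% on library size alone, 4.45% on hepatocyte markers and 93.4% on stellate markers. Leaving out 1 library gave 731 to 1046 genes lower, 389 to 638 higher, 9 to 12 collagen genes lower, 0 to 1 higher, and 6 to 8 ratios called. The counts of collagen genes lower were 8 to 12 in all other fits named.

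Some small values changed sign. With stellate scaling Col4a5 was 0.18, Col5a3 0.12, Col12a1 0.036 and Col13a1 0.22, and with hepatocyte scaling Col23a1 was -0.034. Without GFP 2, 3 and 5, Col4a5 was 0.016 and Col23a1 -0.017. Leaving out 1 library, Col13a1 ranged between -0.14 and 0.077, and the log2 ratio of Col6a3 to Col6a1 between -0.10 and 0.087. Without the 2 libraries farthest in Col1a1, r was -0.399 with Col4a1 and -0.353 with Col14a1 in arcA livers and -0.317 with Col14a1 in GFP livers. The cause of these changes was not tested.

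The replicate numbers showed no clear pairing of the samples. For this, the mean of its group was first taken from each gene of a sample. The deviations left correlated between -0.0487 and 0.159 for same-numbered samples, and 1 of 8 arcA samples correlated best with its own number. These values do not show that the numbers carry no pairing. With the replicate block 876 genes were lower and 592 higher, with 10 collagen genes lower and 1 higher. Col6a1 did not pass there (adjusted p = 0.0893), Col27a1 did (0.0489), and Col13a1 was 0.013. DESeq2 called 12 collagen genes lower, adding Col5a2 (0.0449) and Col6a2 (0.0433), and limma voom called 11. Depth limits the genes below the filter. Some small list counts also moved by over 1.5 times with the tool or filter: genes lower numbered 1 to 2 for chaperones and export, 1 to 3 for propeptide removal, 1 to 3 for cross-linking, 3 to 5 for TGF-beta input, 1 to 2 for activated stellate and smooth muscle cells and 3 to 11 for macrophages.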

Other observations

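Col19a1, a fibril-associated collagen below the filter, had 3 to 44 counts in each arcA liver and 3 to 19 counts in 7 GFP livers, but 205 counts in GFP 3. This liver was chosen after its values were seen.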
